A study of Homo sapiens with 8 samples.

Results

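Expression was examined for 6 genes of cell surface proteins through which stromal cells meet leukocytes and matrix, namely VCAM1, ICAM1, CD83, CD274, CD47 and SDC4. They were chosen by name from the probe table of the array, which held 9 probes for them, and VCAM1, ICAM1, CD83 and SDC4 were measured above background often enough to be tested. These were 4 of the 6 genes, and 4 of the 11182 genes tested. The cells were SW1353, an established human chondrosarcoma line used in place of primary chondrocytes. The 4 groups were siHDAC6 + IL-1, siCon + IL-1, siHDAC6 and siCon, with 2 Illumina whole-genome arrays each. All groups were transfected, either with a QIAGEN siRNA against HDAC6, a cytoplasmic lysine deacetylase (siHDAC6), or with the AllStars siRNA that has no target (siCon). The stimulated groups received IL-1α, which the sample labels give as 6 h long beginning 24 h after transfection. The legend of the study's supplementary dataset also gives 6 h, whereas the legend of its microarray figure gives 8 h. By the methods of the study, cells were kept overnight in serum-free medium after 24 h of transfection, before stimulation. A single cell line and, as labelled, 1 HDAC6 siRNA reagent were used. Nothing in the labels says whether the 2 arrays of a group came from separate cultures, while the methods of the study describe the siRNA treatment as duplicate. A p-value here covers the spread of these arrays alone.

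IL-1 binds its receptor on stromal cells and activates NF-κB and MAP kinases, and cell adhesion molecules are among the best known genes that respond. VCAM1 and ICAM1 are immunoglobulin-family receptors that hold leukocytes through the integrins α4β1 and LFA-1. CD83 is best known as a surface protein of mature dendritic cells, CD274 (PD-L1) restrains T cells through PD-1, and CD47 restrains phagocytes through SIRPα. SDC4 is a syndecan, a transmembrane heparan sulphate proteoglycan that acts with integrins in adhesion to matrix and is expressed by chondrocytes.

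The promoters of the 4 measured genes are shown because NF-κB acts at such sequences. They are from RefSeq (GRCh38.p14) and run 5′ to 3′ on the strand of the gene, from 250 bases before to 50 bases after a transcription start. Capitals mark matches, on either strand, to the NF-κB consensus or to the looser pattern GGNNNTTCC. The patterns were chosen after the sequences had been read, and the 2 overlap. The windows are chr1:100719492-100719791 for VCAM1 (plus strand), chr20:45348375-45348674 for SDC4 (minus strand), chr6:14117522-14117821 for CD83 (plus strand, the second of 2 listed starts) and chr19:10270870-10271169 for ICAM1 (plus strand).
VCAM1: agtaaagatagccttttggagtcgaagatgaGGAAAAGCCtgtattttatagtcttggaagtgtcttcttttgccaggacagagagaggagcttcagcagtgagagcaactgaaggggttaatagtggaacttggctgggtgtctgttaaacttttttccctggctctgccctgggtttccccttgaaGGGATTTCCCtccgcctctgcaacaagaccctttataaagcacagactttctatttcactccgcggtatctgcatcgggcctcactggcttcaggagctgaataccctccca
SDC4: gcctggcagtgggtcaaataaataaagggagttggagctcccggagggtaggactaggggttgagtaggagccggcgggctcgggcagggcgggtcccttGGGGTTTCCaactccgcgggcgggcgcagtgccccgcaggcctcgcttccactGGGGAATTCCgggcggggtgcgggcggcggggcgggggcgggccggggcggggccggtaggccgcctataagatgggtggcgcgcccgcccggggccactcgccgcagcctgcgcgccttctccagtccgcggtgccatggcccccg
CD83: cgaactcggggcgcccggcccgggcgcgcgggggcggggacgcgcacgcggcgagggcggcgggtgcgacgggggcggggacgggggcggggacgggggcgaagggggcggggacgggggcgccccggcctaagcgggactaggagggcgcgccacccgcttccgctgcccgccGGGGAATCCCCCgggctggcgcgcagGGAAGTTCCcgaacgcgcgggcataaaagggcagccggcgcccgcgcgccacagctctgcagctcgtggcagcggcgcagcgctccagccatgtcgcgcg
ICAM1: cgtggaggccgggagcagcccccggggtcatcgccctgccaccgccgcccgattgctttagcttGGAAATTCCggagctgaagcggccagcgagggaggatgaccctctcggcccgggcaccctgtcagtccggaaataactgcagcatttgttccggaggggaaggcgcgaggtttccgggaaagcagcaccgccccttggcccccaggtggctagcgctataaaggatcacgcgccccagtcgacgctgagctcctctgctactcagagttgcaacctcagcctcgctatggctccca
A match to the consensus lay at -62 in the VCAM1 window, at -97 in the SDC4 window and at -76 to -74 in the second CD83 window, counted from each start to the first base of the match. The ICAM1 window held the looser pattern at -186 and no match to the consensus. Of all 35116 promoter windows of this length, 5.91% held the consensus and 20.1% the looser pattern. The CD274 window held the looser pattern at -111, and 2 matches to a pattern of interferon elements (GAAA, 2 free bases, GAAA) present in 3.57% of windows, at -208 and -202. The VCAM1 window matched the interferon pattern at -15. The AP-1 site TGANTCA, in 7.71% of windows, was in none of the windows of the 6 genes. None of these patterns matched the CD47 window or the first CD83 window. These matches describe the letters of the windows, and no binding was measured.

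The genes of the 4 promoters lie at chr1:100719742-100739045 (VCAM1), chr20:45325288-45348424 (SDC4), chr6:14117256-14136918 (CD83) and chr19:10271120-10286615 (ICAM1). CD274 lies at chr9:5450542-5470554 and CD47 at chr3:108043091-108091031. All are RefSeq loci of GRCh38.p14. The positions of the array probes within these genes are not given in the sources used here.

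The array signals were measured without normalization by the authors, had a median of 60.3 to 67.2 per array, and placed 14315 to 16659 probes above background (detection p under 0.05). They were background-corrected, quantile-normalized and put on the log2 scale with neqc of limma, and this log2 scale is used below unless a signal is named. HDAC6, the target of the siRNA, was 4.84 and 4.87 in siHDAC6 + IL-1 cells, not detected on either array, against 6.63 and 6.46 in siCon + IL-1 cells, at least 3.0-fold lower (limma, adjusted p = 6.2e-04). Without IL-1 it was 5.14 and 4.87 in siHDAC6 cells and 6.36 and 6.32 in siCon cells, lower with siHDAC6 by a log2 value of -1.34 (standard error, SE, 0.12, limma, adjusted p = 0.0020). Of 12 markers of chondrosarcoma and mesenchymal cells, 9 were detected on all 8 arrays. The collagen genes COL9A1 and COL2A1 were detected on 6 and 4 arrays, and ACAN, the cartilage proteoglycan aggrecan, on none. Of 9 endothelial markers, TEK was detected on all 8 arrays and VWF on 7, PECAM1 and TIE1 on 1 each and EGFL7 on 2, and CDH5, KDR, CLDN5 and ESAM on none. In these bulk RNA samples, fewer cells that express a gene and less RNA per cell cannot be told apart.

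**Figure D1:**
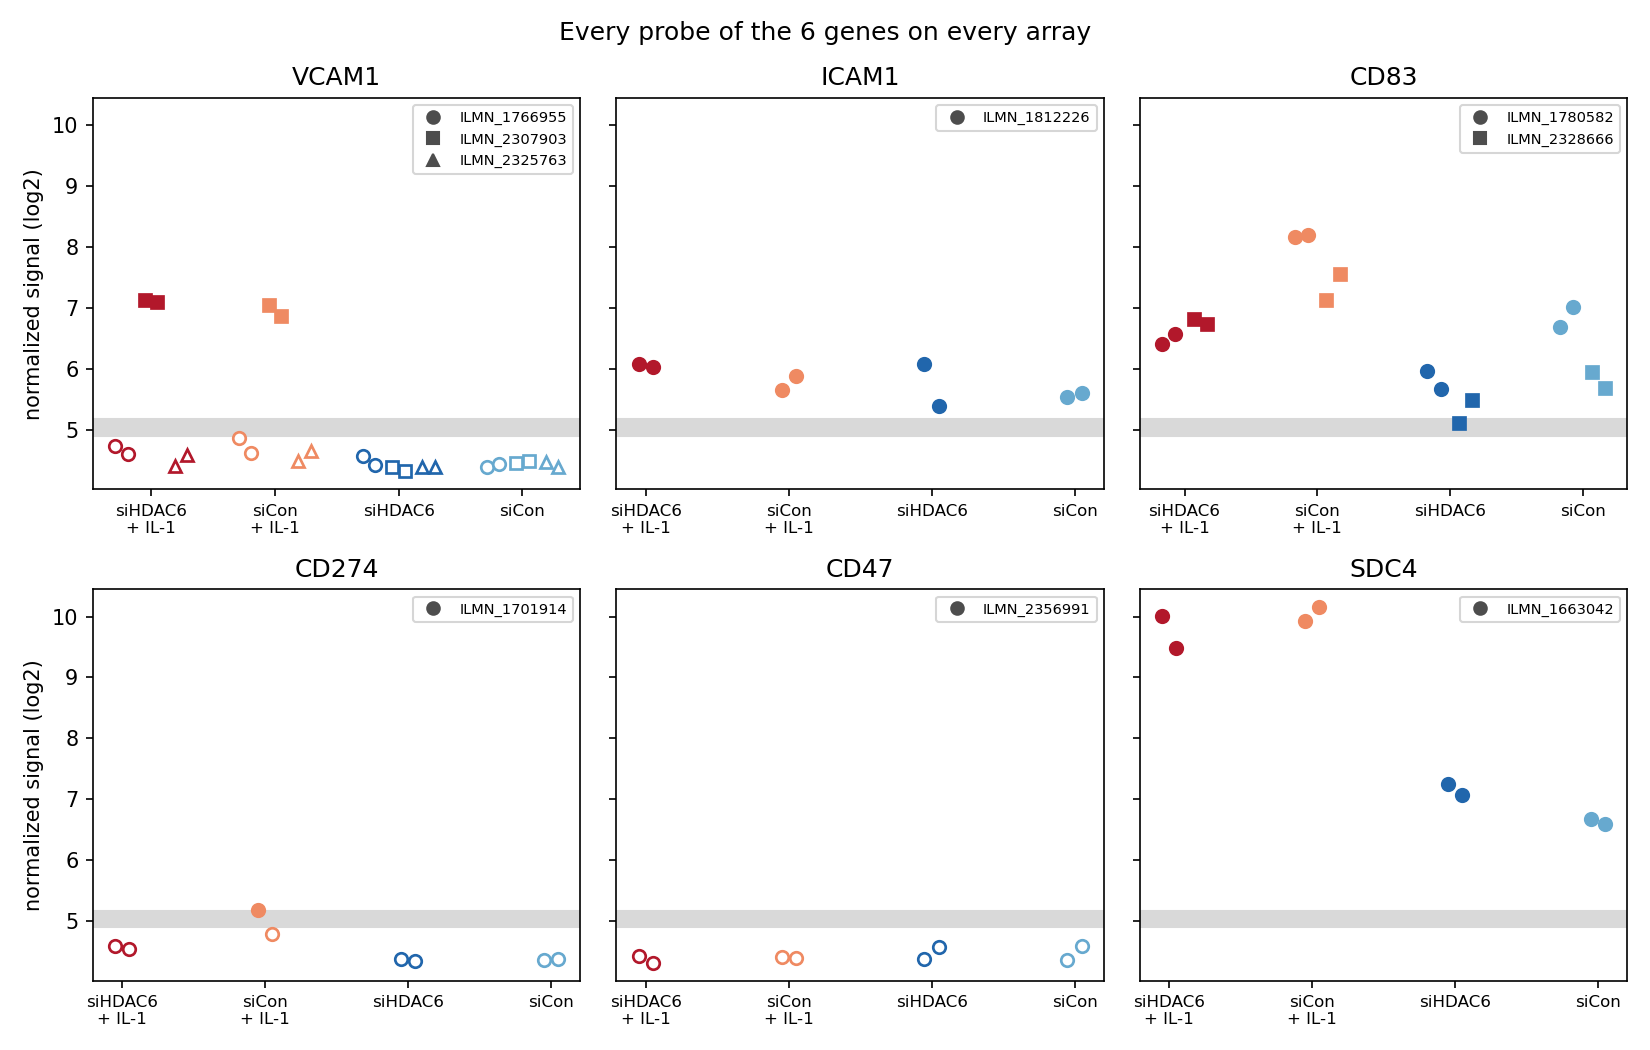
Normalized log2 signal of each of the 9 probes on each array, by group; filled symbols are above background, open symbols are not, and the grey band spans the lowest detected value of the 8 arrays, 4.90 to 5.17. VCAM1 rose above the band only with IL-1 and by 1 of its 3 probes, SDC4 separated by IL-1, and CD83 was lower with siHDAC6 on both probes. The CD83 difference was called on ILMN_1780582 alone.

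The first question was which of these genes respond to IL-1. In siCon cells VCAM1, SDC4 and CD83 were higher with IL-1, 3 of the 4 genes tested, where 20.6% of all genes tested were called, 9.37% higher and 11.2% lower (limma, adjusted p under 0.05). In siHDAC6 cells the calls were for the same 3 genes, against a background of 10.3%, with 5.99% higher and 4.27% lower. VCAM1 passed the filter on dim probes only through its IL-1 arrays, and the genes were chosen with results of these arrays known, so the counts describe the members and no more. ICAM1 was not called in either comparison.

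VCAM1, the receptor for α4β1 integrin, was 7.13 and 7.11 in siHDAC6 + IL-1 cells and 7.05 and 6.87 in siCon + IL-1 cells. It was 4.40 and 4.33 in siHDAC6 cells and 4.46 and 4.49 in siCon cells, where it was not detected on any array. The stimulated and unstimulated groups did not overlap. IL-1 raised VCAM1 at least 4.37-fold in siHDAC6 cells (limma, adjusted p = 1.6e-06) and at least 4.07-fold in siCon cells (limma, adjusted p = 2.2e-06), both against the lowest detected signal. Between the stimulated groups the log2 difference of siHDAC6 + IL-1 over siCon + IL-1 was 0.16 (95% interval -0.09 to 0.40, limma, adjusted p = 0.41). The difference of the IL-1 responses was 0.27 (SE 0.15, limma, adjusted p = 0.59), which rests on unstimulated values below detection.

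Only 1 of the 3 VCAM1 probes, ILMN_2307903, carried this response. The deposited signals of that probe were 178 and 194 in siHDAC6 + IL-1 cells and 178 and 133 in siCon + IL-1 cells, against 57.1 and 51.9 in siHDAC6 cells and 61.7 and 57.5 in siCon cells. ILMN_1766955, listed for the same transcript, stayed at 55.3 to 70.8, and ILMN_2325763, listed for a second transcript, stayed at 53.5 to 65.4, with detection on 0 of 8 arrays each. The rise of VCAM1 is thus a measurement of 1 probe. On the authors' log2 values it was 1.04 in siHDAC6 cells and 0.85 in siCon cells, where the fitted values here were 2.75 and 2.48.

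SDC4, the syndecan, was 10.003 and 9.48 in siHDAC6 + IL-1 cells, 9.92 and 10.16 in siCon + IL-1 cells, 7.26 and 7.07 in siHDAC6 cells and 6.67 and 6.60 in siCon cells. The stimulated groups overlapped, and each lay far above both unstimulated groups. The IL-1 response was 5.96-fold in siHDAC6 cells (log2 2.57, SE 0.18, limma, adjusted p = 6.2e-05) and 10.6-fold in siCon cells (log2 3.40, SE 0.18, limma, adjusted p = 8.5e-06). The response in siHDAC6 cells minus that in siCon cells was -0.83 on the log2 scale (95% interval -1.42 to -0.24), which did not pass adjustment over all genes (limma, unadjusted p = 0.012, adjusted p = 0.36).

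The smaller fold of SDC4 in siHDAC6 cells went with a higher value before IL-1. Without IL-1 the 2 siHDAC6 arrays were above the 2 siCon arrays by 0.53 (95% interval 0.11 to 0.94), which was not called (limma, adjusted p = 0.16). With IL-1 the siHDAC6 arrays differed from the siCon arrays by -0.30 (95% interval -0.71 to 0.12, limma, adjusted p = 0.36). In deposited signals SDC4 was 1053 and 825 in siHDAC6 + IL-1 cells, 1099 and 944 in siCon + IL-1 cells, 192 and 187 in siHDAC6 cells and 177 and 129 in siCon cells. The 2 siHDAC6 + IL-1 arrays stood apart, and the stimulated difference was -0.04 without replicate 2 and -0.56 without replicate 1.

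ICAM1, the LFA-1 ligand, was detected on all 8 arrays and spanned a narrow range. It was 6.08 and 6.04 in siHDAC6 + IL-1 cells, 5.65 and 5.89 in siCon + IL-1 cells, 6.07 and 5.40 in siHDAC6 cells and 5.54 and 5.61 in siCon cells. Replicates 1 and 2 of siHDAC6 cells stood farther apart than the highest and lowest of the other 6 arrays. The log2 change with IL-1 was 0.32 in siHDAC6 cells (95% interval -0.15 to 0.80, limma, adjusted p = 0.38) and 0.20 in siCon cells (95% interval -0.27 to 0.67, limma, adjusted p = 0.54). With siHDAC6 it was 0.29 in stimulated cells (95% interval -0.19 to 0.76, limma, adjusted p = 0.44) and 0.17 in unstimulated cells (95% interval -0.31 to 0.64, limma, adjusted p = 0.73). The single ICAM1 probe, ILMN_1812226, had signals of 85.7 to 113, and at this signal an IL-1 response of up to 0.67 in siCon cells lay within the interval.

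**Figure D2:**
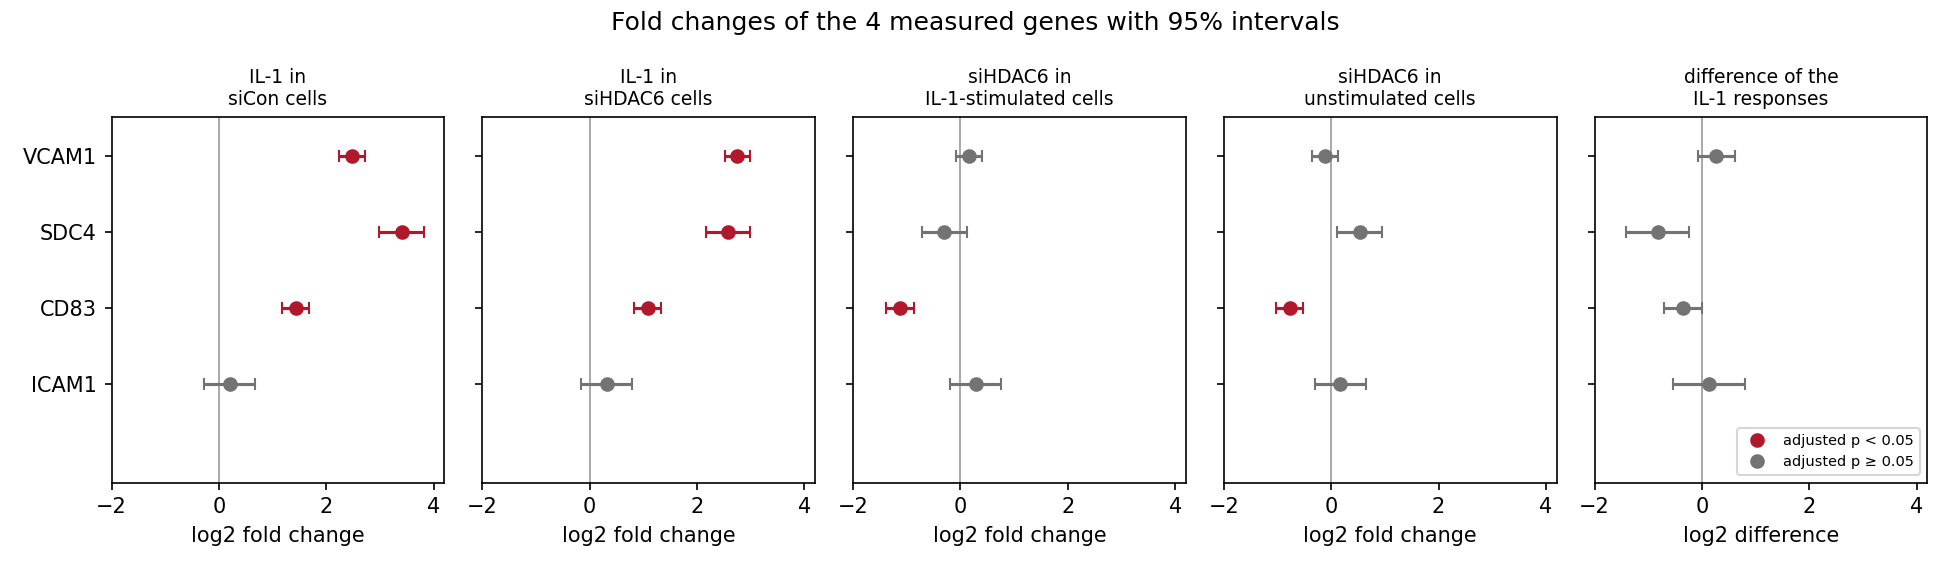
Log2 fold changes (log2 difference in the last panel) of VCAM1, SDC4, CD83 and ICAM1 in each comparison, with 95% intervals from limma; red points passed an adjusted p of 0.05. The siHDAC6 panels have 1 called gene each, CD83, at -1.13 with IL-1 and -0.77 without; fitted values of VCAM1 with IL-1 are set against arrays below detection.

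The second question was which of these genes depend on HDAC6. CD83 alone was called, lower in both comparisons of siHDAC6 with siCon, 1 of the 4 genes tested, where 8.07% of all genes were called with IL-1 (3.65% higher, 4.42% lower) and 4.05% without (1.64% higher, 2.41% lower). For the difference of the IL-1 responses 0 of the 4 were called (limma), where 0.116% of all genes were called. SDC4 alone of the 4 had an unadjusted p under 0.05, as had 1116 of all 11182 genes.

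CD83 was 6.61 and 6.66 in siHDAC6 + IL-1 cells, 7.65 and 7.88 in siCon + IL-1 cells, 5.54 and 5.58 in siHDAC6 cells and 6.32 and 6.35 in siCon cells, each the mean of 2 probes. On this mean no group overlapped another, and their order was siCon + IL-1, siHDAC6 + IL-1, siCon, siHDAC6. On 1 of the probes, ILMN_1780582, the middle groups were the other way round. There siCon cells had 6.70 and 7.01 and siHDAC6 + IL-1 cells 6.41 and 6.58. Depletion of HDAC6 lowered CD83 2.18-fold in stimulated cells (log2 -1.13, SE 0.11, limma, adjusted p = 0.0018). In unstimulated cells it was 1.71-fold lower (log2 -0.77, SE 0.11, limma, adjusted p = 0.010). The call in unstimulated cells was lost without any 1 of the 4 unstimulated arrays (siHDAC6 replicate 1 or 2, siCon replicate 1 or 2), at adjusted p of 0.065 to 0.082, with changes of -0.80 to -0.75. In stimulated cells the call held without any 1 of the 8 arrays, with changes of -1.24 to -1.01. On the authors' log2 values the changes were smaller, -0.69 in stimulated and -0.31 in unstimulated cells.

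The IL-1 response of CD83 was 2.11-fold in siHDAC6 cells (log2 1.08, limma, adjusted p = 6.0e-04) and 2.70-fold in siCon cells (log2 1.43, limma, adjusted p = 7.7e-05). The 2 responses differed by -0.35 (95% interval -0.71 to 0.01, limma, adjusted p = 0.51). The lower value with siHDAC6 was thus present with and without IL-1. On this mean of 2 probes a difference of the responses was not shown.

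The 2 CD83 probes, both listed for the same transcript, gave changes of unequal size, of which 1 probe's were called. ILMN_1780582 had signals of 124 and 146 in siHDAC6 + IL-1 cells, 342 and 268 in siCon + IL-1 cells, 105 and 97.9 in siHDAC6 cells and 179 and 156 in siCon cells. Its log2 change with siHDAC6 was -1.69 in stimulated cells (SE 0.15, limma, adjusted p = 0.0017) and -1.04 in unstimulated cells (limma, adjusted p = 0.014). ILMN_2328666 had signals of 151 and 159 in siHDAC6 + IL-1 cells, 186 and 185 in siCon + IL-1 cells, 78.3 and 92.1 in siHDAC6 cells and 124 and 88.4 in siCon cells. On this probe siHDAC6 and siCon differed by -0.56 with IL-1 (limma, adjusted p = 0.12) and by -0.51 without (limma, adjusted p = 0.19), and neither was called.

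The IL-1 response of siHDAC6 cells was 0.68 on ILMN_1780582 (limma, adjusted p = 0.033) and 1.48 on ILMN_2328666 (limma, adjusted p = 0.0020), and that of siCon cells was 1.33 and 1.53. On ILMN_1780582 the responses of siHDAC6 and siCon cells differed by -0.65 (95% interval -1.16 to -0.15, limma, unadjusted p = 0.017, adjusted p = 0.42). On ILMN_2328666 they differed by -0.05 (95% interval -0.66 to 0.56, limma, adjusted p = 0.97), and neither was called. The difference between the probes in the IL-1 response was -0.80 in siHDAC6 cells (95% interval -1.43 to -0.17, limma, adjusted p = 0.40). In siCon cells it was -0.20 (95% interval -0.83 to 0.43, limma, adjusted p = 0.93), and neither was called. The difference between the probes in the effect of siHDAC6 on stimulated cells was -1.13 (95% interval -1.76 to -0.50, limma, unadjusted p = 0.0028). It did not pass adjustment over the 2690 genes with several probes (adjusted p = 0.27). This comparison was added after the probes had been seen to differ.

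**Figure D3:**
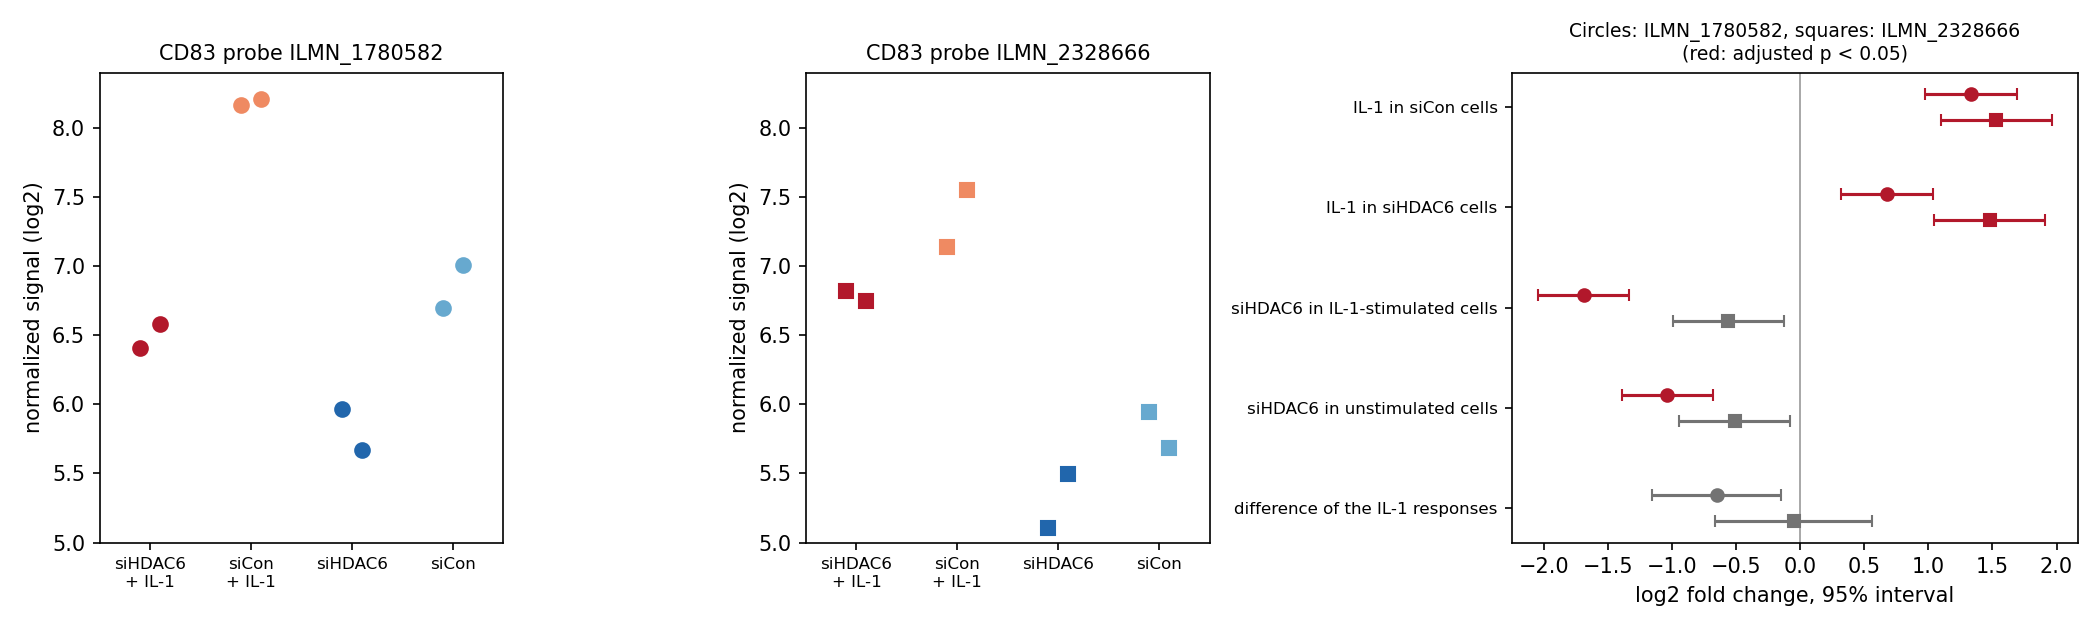
Left and middle, normalized log2 signal of each CD83 probe on each array; right, log2 fold changes of each probe on its own with 95% intervals from limma. With siHDAC6 in stimulated cells ILMN_1780582 changed by -1.69 and ILMN_2328666 by -0.56, and only the first is red.

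CD83 is also a leukocyte gene, and some other leukocyte markers were lower with siHDAC6 as well. Of 14 such markers, 8 were tested, and CD68, CD3D, ITGB2 and CSF1R were detected on all 8 arrays. PTPRC, CD14, CD3E, ITGAM and TYROBP were detected on none. The summed signal of all leukocyte marker probes was 7487 to 8336 in siHDAC6 + IL-1 cells, 9404 to 10971 in siCon + IL-1 cells, 6903 to 7075 in siHDAC6 cells and 7828 to 9898 in siCon cells. Most of it was CD68, a lysosomal glycoprotein, and without CD68 the sums were 1749 to 1807 in siHDAC6 + IL-1 cells, 1925 to 1988 in siCon + IL-1 cells, 1770 to 1831 in siHDAC6 cells and 1778 to 2176 in siCon cells. In stimulated cells siHDAC6 lowered CD68 (log2 -0.72, limma, adjusted p = 0.0078), the receptor CSF1R (-0.99, limma, adjusted p = 0.0043) and the class II chain HLA-DRA (-1.19, limma, adjusted p = 0.0089). LYZ, lysozyme, was at least 1.71-fold lower (limma, adjusted p = 0.020). Without IL-1 siHDAC6 also lowered CSF1R (-1.08, limma, adjusted p = 0.0033) and CD68 (-0.49, limma, adjusted p = 0.043). HLA-DRA (-0.29, limma, adjusted p = 0.42) and LYZ (-0.07, limma, adjusted p = 0.87) were not called there. The other 4 tested markers were not called in any comparison, with log2 values for siHDAC6 over siCon in stimulated cells of -0.25 for CD3D, 0.05 for ITGB2, -0.08 for MS4A1 and -0.18 for SPI1 (limma, adjusted p of 0.28, 0.87, 0.89 and 0.60). With IL-1 in siCon cells CD83 rose. So did HLA-DRA (log2 1.56, limma, adjusted p = 5.8e-04), LYZ (0.63, limma, adjusted p = 0.035) and CD68 (0.40, limma, adjusted p = 0.031). CSF1R fell there (log2 -0.46, limma, adjusted p = 0.029). The part of these markers in the CD83 result was not tested, and PTPRC, the pan-leukocyte marker CD45, was below detection throughout.

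CD274, the ligand of PD-1, lay at the edge of detection. Its signals were 63.2 and 61.7 in siHDAC6 + IL-1 cells, 78.7 and 69.1 in siCon + IL-1 cells, 55.7 and 53.3 in siHDAC6 cells and 56.2 and 52.1 in siCon cells, and only the 78.7 of siCon + IL-1 replicate 1 was above background. No group of CD274 was thus measured on both arrays. A fold change of CD274 is therefore not given. CD47, the SIRPα ligand, had signals of 49.9 to 64.3 on its single listed probe and was detected on 0 of 8 arrays, so no level or change of it can be given from these arrays.

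The genes whose profile over the 8 arrays lay nearest to each measured gene were found by the root mean square distance of the centred log2 values. Nearest to VCAM1 were TLR7 (0.127), IL32 (0.138) and IRF1 (0.153), an endosomal RNA receptor, a cytokine and an interferon regulatory factor. Nearest to SDC4 were TAP1 (0.200), RELB (0.219) and OAS2 (0.243), a peptide transporter, an NF-κB subunit and an antiviral enzyme. Nearest to CD83 were MT1X (0.149), TENT5A (0.154) and DUSP6 (0.165), a metallothionein, a poly(A) polymerase and a MAP kinase phosphatase. STAP2 (0.0876) and ATP2B1 (0.0961) lay near ICAM1, which itself varied little. These distances describe 8 arrays in 4 groups.

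Related genes were counted in 6 lists, in all 163 genes of which 113 were tested. With IL-1, 18 were called higher and 2 lower in siHDAC6 cells (17.7%, against 10.3% of all genes), and 28 higher and 10 lower in siCon cells (33.6%, against 20.6%). With siHDAC6, 4 were called higher and 11 lower in stimulated cells (13.3%, against 8.07%), and 4 higher and 5 lower in unstimulated cells (7.96%, against 4.05%). The counts of the single lists below stand against the same shares of all genes, and the lists were chosen with results known. IDO1, TNFSF4, SELE, CX3CL1 and ITGB8 were among list genes that passed the filter on dim probes only through their IL-1 arrays. The IL-1 counts therefore describe the lists and no more. The difference of the IL-1 responses had 0 calls (limma) among the 113, with 13 at an unadjusted p under 0.05 and 4 calls on the authors' log2 values. Of all 11182 genes, 1116 had an unadjusted p under 0.05 for that difference. With IL-1 there were 2783 in siHDAC6 cells and 3725 in siCon cells, in either direction. With siHDAC6 there were 2803 in stimulated cells and 2196 in unstimulated cells. The genes named below by the naming rule kept their sign under median scaling, under quantile normalization alone and on the authors' values. With median scaling only 3 of the 15 results named for siHDAC6 in stimulated cells were called, IDO1, THBS1 and THBS2. In unstimulated cells 2 of the 9 were, PODXL and TIMP3. The calls in stimulated cells rested on few arrays, since without siHDAC6 + IL-1 replicate 2 there were 0 calls, without its replicate 1 there were 3, and without siCon + IL-1 replicate 1 or 2 there were 7 and 1. By the naming rule 15 results were named for that comparison, of which 0 were called in all 8 fits that left out an array (limma), against 17 of 23 for IL-1 in siCon cells and 1 of 9, TIMP3, for siHDAC6 in unstimulated cells.

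Of 29 other leukocyte adhesion molecules, 19 were tested. IL-1 raised 6 in siHDAC6 cells and 7 in siCon cells and lowered 0 (limma), with 3 and 1 lower at an unadjusted p under 0.05, and the median log2 change of the list in siCon cells was 0.09, against -0.09 over all genes. Among those that rose in siCon cells were the sialomucin CD34 (log2 1.98), the CD6 ligand ALCAM (1.33), the junctional molecule JAM2 (1.27), the hyaluronan receptor CD44 (1.16) and the membrane-bound chemokine CX3CL1, which was not detected without IL-1 (at least 2.18-fold). In stimulated cells siHDAC6 lowered SPP1, osteopontin (log2 -0.55, limma, adjusted p = 0.036), and PODXL, podocalyxin (-0.53, limma, adjusted p = 0.029), and raised 0, with 0 higher also at an unadjusted p under 0.05. The list median there was -0.25, against 0.03 over all genes. PODXL was also lower with siHDAC6 in unstimulated cells (-0.85, limma, adjusted p = 0.0068). In stimulated cells SPP1 was called in 0 and PODXL in 4 of the 8 fits that left out an array, and neither with median scaling (limma, adjusted p of 0.61 and 0.56).

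Of 29 other costimulatory and checkpoint genes, 17 were tested. IL-1 raised 7 in siHDAC6 cells and 8 in siCon cells, with a list median of 0.57 in siCon cells against -0.09 over all genes. Among those that rose in siCon cells were the checkpoint ligand CEACAM1 (log2 2.50), LGALS9, galectin-9 (1.17), the CD27 ligand CD70 (1.09) and the receptor TNFRSF14 (1.06). IDO1, which degrades tryptophan, rose at least 8.10-fold and the OX40 ligand TNFSF4 at least 1.95-fold, both not detected without IL-1. In stimulated cells siHDAC6 lowered IDO1 (log2 -1.21, SE 0.16, limma, adjusted p = 0.0058), CEACAM1 (-0.93, limma, adjusted p = 0.014) and TNFSF4 (-0.84, limma, adjusted p = 0.034). Of these, IDO1 was called in 7 of the 8 fits that left out an array, CEACAM1 in 5 and TNFSF4 in 1. In unstimulated cells 0 of the 17 were called with siHDAC6 (limma), with 2 calls on the authors' log2 values. An unadjusted p under 0.05 was held by 6 of the 17, against 2196 of all 11182 genes.

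CD47 is bound by thrombospondins, and of 19 partners and other phagocytosis signals 15 were tested. IL-1 lowered 1 in siHDAC6 cells, THBS2 (log2 -0.81, limma, adjusted p = 0.019). In siCon cells it lowered THBS2 (-0.93, limma, adjusted p = 0.0062) and CD24 (-0.65, limma, adjusted p = 0.0070) and raised 3, among them B2M, the light chain of class I MHC (0.60, limma, adjusted p = 0.0057). Depletion of HDAC6 raised THBS1, thrombospondin-1, in stimulated (0.75, limma, adjusted p = 0.0092) and unstimulated cells (0.90, limma, adjusted p = 0.0060), and THBS2 in stimulated cells (0.68, limma, adjusted p = 0.047). It lowered 1 in stimulated cells, BNIP3 (-0.44, limma, adjusted p = 0.037), which was not called with median scaling (limma, adjusted p = 0.64). THBS2 was called in 1 of the 8 fits that left out an array, and THBS1 in 6 for each comparison.

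Of 38 other syndecans, glypicans and heparan sulphate enzymes, 25 were tested, and their median change with IL-1 in siCon cells, -0.08, was near that of all genes. In siCon cells IL-1 raised 4 and lowered 5, among them AGRN, agrin (log2 0.71), and the heparan sulphate polymerase EXT1 (0.69), and GLCE, which epimerises glucuronic acid (-0.67), and SDC2, syndecan-2 (-0.58). SDC2 thus changed in the other direction from SDC4, but was not called on the authors' log2 values (-0.12, limma, adjusted p = 0.16). In siHDAC6 cells 1 was raised and 1 lowered. With siHDAC6, EXTL2 (-0.56, limma, adjusted p = 0.028) and the glypican GPC6 (-0.51, limma, adjusted p = 0.023) were lower in stimulated cells. In unstimulated cells GPC6 (-0.64) and the sulphatase SULF2 (-0.67) were lower and EXT1 (0.63) higher. EXTL2 was called in 5 of the 8 fits that left out an array, and GPC6, SULF2 and EXT1 in 4 for each of these comparisons.

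Of 23 integrin subunits, 14 were tested. ITGB8, not detected without IL-1, was raised at least 1.70-fold by IL-1 in siCon cells, where ITGA10 (log2 -0.49) and ITGB5 (-0.38) fell. ITGA2, a subunit of a collagen receptor, was lower with siHDAC6 in stimulated (-0.70, limma, adjusted p = 0.017) and unstimulated cells (-0.77, limma, adjusted p = 0.017), in each case called in 4 of the 8 fits that left out an array. Of 25 sheddases and surface stabilisers, 23 were tested. IL-1 raised 2 in siHDAC6 cells and 5 in siCon cells, among these ADAM17, which sheds many surface proteins (0.62), and the matrix protease MMP7 (1.68), and in siCon cells it lowered CMTM4, which stabilises CD274 at the surface (-0.79, limma, adjusted p = 0.0064). With siHDAC6, TIMP3, an inhibitor of ADAM17, was higher in stimulated (0.55, limma, adjusted p = 0.020) and unstimulated cells (1.05, limma, adjusted p = 0.0025). RDX, radixin, was higher in stimulated cells (0.56) and EZR, ezrin, lower (-0.44, limma, adjusted p = 0.040), both linkers of surface proteins to actin. With median scaling RDX (0.75, limma, adjusted p = 0.099) and TIMP3 (0.70, limma, adjusted p = 0.14) were not called in stimulated cells. In stimulated cells EZR was called in 0 of the 8 fits that left out an array and RDX and TIMP3 in 4 each, and EZR was not called with median scaling (-0.29, limma, adjusted p = 0.68).

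**Figure D4:**
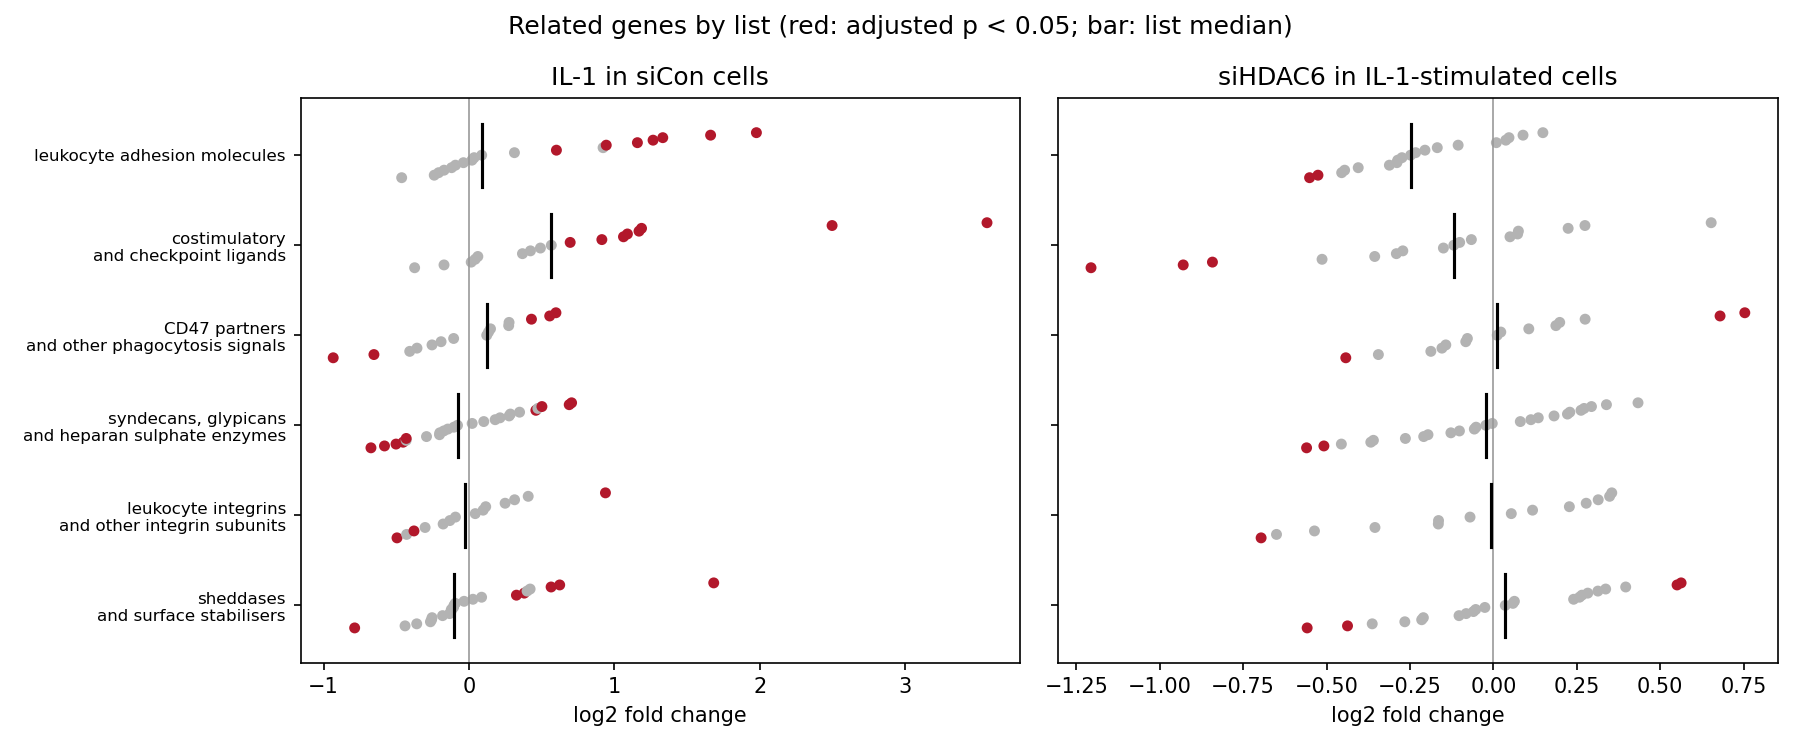
Log2 fold change of each tested gene of the 6 lists with IL-1 in siCon cells (left) and with siHDAC6 in stimulated cells (right); red points passed an adjusted p of 0.05 in limma and black bars are list medians. Costimulatory and checkpoint genes had a median of 0.57 on the left, and their 3 red points on the right are IDO1, CEACAM1 and TNFSF4.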

How the data were processed

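Gene expression was profiled on 8 Illumina arrays. The authors deposited the signal intensity of each of 48803 probes without normalization, with its detection p-value, as well as lumi-normalized log2 values. The 27578 probes with 1 gene symbol were named from the array's annotation table. The 6 genes and the related lists were chosen with earlier results of these data known.

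In R 4.3.3 with limma 3.58.1, signals were background-corrected and quantile-normalized (neqc, offset 16). Probes with a detection p under 0.05 on at least 2 arrays and 1 symbol were averaged to 11182 genes, and lmFit (1 mean per group) and eBayes were applied, with Benjamini-Hochberg adjustment over all genes and calls at an adjusted p under 0.05. A fold against a group below background is a lower bound against the lowest detected signal of each array. Background correction enlarges fold changes near background. The workflow was tested on simulated data.

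Named were the 6 genes, HDAC6, leukocyte markers beside CD83, up to 4 called genes with the largest change per list and comparison (some are not printed), and the 3 nearest genes of each tested member, with 1 for ICAM1 left out. CSF1R, CD68, HLA-DRA, LYZ, CD44, CD70 and TNFRSF14 were singled out after their values were seen.

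Results were recomputed on the authors' log2 values and with quantile normalization alone, an offset of 50, median scaling, other filters, single probes, eBayes with trend and robust, a replicate block, a fit of only the arrays compared, and leaving out each array. Arrays of the study with an HDAC inhibitor were not analysed here.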

Additional observations from a re-analysis of the deposited data

How the results depend on the processing

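With IL-1, 3 members were called in siHDAC6 and 3 in siCon cells, and 1 was called with siHDAC6 in stimulated cells, under every alternative that counted members. With single probes a member counted as called when any of its probes was. In stimulated cells CD83 counted by ILMN_1780582 alone, as ILMN_2328666 was not called (-0.56, limma, adjusted p = 0.12). With siHDAC6 in unstimulated cells 1 member was called, but 0 with median scaling (CD83 at -0.85, limma, adjusted p = 0.054), 2 with eBayes trend and robust (SDC4 at 0.53, limma, adjusted p = 0.032, was added) and 0 to 1 when single arrays were left out. No called value of a member changed sign. On the authors' log2 values the IL-1 response in siCon cells was 0.85 for VCAM1, 2.66 for SDC4 and 0.81 for CD83. Deviations of arrays with the same replicate number were nearly uncorrelated (-0.04 to 0.05), which does not settle whether those arrays were paired. With the replicate block the members' calls were 3, 3, 1, 1 and 0 in the order of the 5 comparisons. Leaving out single arrays turned ICAM1, which was not called, to -0.02 with IL-1 in siHDAC6 cells and to -0.17 with siHDAC6 in unstimulated cells.

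Counts over all genes moved more than the members did. With IL-1 in siCon cells 2300 genes were called, 1456 with median scaling and 3091 on the authors' log2 values. With IL-1 in siHDAC6 cells 1148 were called, 529 and 1908 on the same alternatives. With siHDAC6 in stimulated cells 902 were called, 236 and 1692, and 180 to 665 without single arrays. In unstimulated cells 453 were called, 178 with only the arrays compared and 1124 on the authors' values, and 109 to 459 without single arrays. The difference of the responses had 13 calls, 6 with the block, 164 on the authors' values and 0 to 9 without single arrays. Median scaling shifted the median of all genes to -0.25 with IL-1 in siCon cells and to 0.15 with siHDAC6 in stimulated cells, and the share of calls that were higher from 45.6% to 37.9% and from 45.2% to 59.7%. It moved this share from 58.4% to 81.7% with IL-1 in siHDAC6 cells and from 40.4% to 17.2% with siHDAC6 in unstimulated cells. Of the related genes, 15 were called with siHDAC6 in stimulated cells, 3 with median scaling, 9 with the block, 31 on the authors' values and 0 to 11 without single arrays. Genes near background are limited by signal, as the arrays below detection show for VCAM1, CD274 and CD47.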
